A study of Mus musculus with 9 samples.

Results

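The genes described here are 10 genes of enamel formation, chosen by name: *Amelx*, *Ambn*, *Enam*, *Amtn*, *Odam*, *Klk4*, *Fam83h*, *Wdr72*, *Slc24a4* and *Sp6*. All 10 were found by their symbol among the 27179 genes of the count table. They were measured by poly(A) RNA-seq in whole mandibles including the teeth, from 5 WT mice and from 4 mice whose label gives the genotype *FcγRIIB*-/-, a deletion of the inhibitory Fc gamma receptor that makes mice prone to lupus. Both groups were 6 months old, with no treatment named in the labels, and each library came from 1 mouse. The methods name the knockout mice as males on a C57BL/6 background and do not state the strain of the WT controls. The deletion is a germline one and is not restricted to any cell type. The comparison asked whether enamel genes differed between the genotypes, and whether genes of the secretory stage differed in the same way as genes of the maturation stage.

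Enamel is made by ameloblasts, an epithelial cell layer that covers the outer side of the growing tooth. In the secretory stage these cells release amelogenin, ameloblastin and enamelin, the matrix proteins in which the first thin mineral crystals form. In the maturation stage they degrade that matrix with the serine protease kallikrein 4, lay down a basal lamina that contains amelotin and ODAM, and move calcium and bicarbonate so that the crystals thicken. Ameloblasts are lost from molars when these erupt, whereas the mouse incisor grows throughout life and keeps both stages along its length, so adult mandibles with incisors contain enamel-forming cells.

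The libraries held between 21453880 and 28991631 counts, and 16329 genes passed the filter on low counts, including all 10 enamel genes. The targeted gene was checked first. *Fcgr2b* had between 442 and 954 counts in WT and between 562 and 757 in the mice labelled *FcγRIIB*-/-, which is not lower (log2 fold change 0.21, standard error (SE) 0.20, edgeR adjusted p = 0.442). The neighbouring receptor genes are similar in sequence and the counts do not separate exons. These mice are therefore called knockout-labelled below, and each direction is between libraries by their labels. Without WT replicate 2, *Fcgr2b* was higher in knockout-labelled mice (log2 fold change 0.46, edgeR adjusted p = 0.0131). WT replicate 5 was the lowest WT mouse in 9 of the 10 enamel genes.

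Of the enamel genes, 4 lie on mouse chromosome 5, within a cluster of genes for secretory calcium-binding phosphoproteins. In mm10 (GRCm38) *Odam* spans 87885010 to 87894809, *Amtn* 88376108 to 88385916, *Ambn* 88455991 to 88468531 and *Enam* 88487975 to 88506049, all on the plus strand. *Amelx* lies on chromosome X, from 169176114 to 169187209 on the minus strand, inside the larger gene *Arhgap6*, which is read from the other strand. *Klk4* is on chromosome 7 (43881160 to 43885804), *Wdr72* on chromosome 9 (74110331 to 74283203), *Sp6* on chromosome 11 (97013569 to 97024739), *Slc24a4* on chromosome 12 (102128727 to 102267133) and *Fam83h* on chromosome 15 (76001092 to 76014336). *Slc24a4*, *Fam83h* and *Sp6* also overlap annotated genes on the opposite strand. These overlaps are of whole gene spans, and overlap of exons was not examined. The library kit keeps the strand, but the strand setting used for counting is not given in the sources used here. Whether reads of these partners entered the counts is therefore not known.

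Promoter sequences from RefSeq (GRCm38.p6), from 250 bases before to 50 bases after the start site, were at hand for 7 of the 10 genes. They are shown for the 3 secretory genes, which rose, and for *Amtn* and *Klk4*, maturation genes that did not pass the test, so that the 2 stages can be compared. Capitals mark every match, on either strand, to 5 motifs. These were the core of the box that positions transcription starts, spelled TATAAA, the pentamer CCAAT, which reads ATTGG when it lies on the reverse strand, the core bound by Runx factors, spelled TGTGGT, a core bound by homeobox factors, spelled TAATTA, and the box bound by Sp factors, spelled GGGCGG.
Amelx (chrX:169187160-169187459, minus strand): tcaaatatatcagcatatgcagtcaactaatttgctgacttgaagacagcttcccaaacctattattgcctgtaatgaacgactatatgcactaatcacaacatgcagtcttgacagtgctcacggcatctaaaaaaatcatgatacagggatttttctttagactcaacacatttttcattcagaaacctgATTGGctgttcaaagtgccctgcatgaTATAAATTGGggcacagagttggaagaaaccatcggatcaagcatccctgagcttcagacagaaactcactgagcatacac
Ambn (chr5:88455741-88456040, plus strand): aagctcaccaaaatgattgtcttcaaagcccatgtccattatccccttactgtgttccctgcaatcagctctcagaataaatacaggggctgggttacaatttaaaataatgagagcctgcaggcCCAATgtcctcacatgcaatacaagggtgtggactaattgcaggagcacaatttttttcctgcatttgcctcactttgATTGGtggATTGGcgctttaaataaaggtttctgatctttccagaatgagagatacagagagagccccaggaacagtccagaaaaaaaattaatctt
Enam (chr5:88487725-88488024, plus strand): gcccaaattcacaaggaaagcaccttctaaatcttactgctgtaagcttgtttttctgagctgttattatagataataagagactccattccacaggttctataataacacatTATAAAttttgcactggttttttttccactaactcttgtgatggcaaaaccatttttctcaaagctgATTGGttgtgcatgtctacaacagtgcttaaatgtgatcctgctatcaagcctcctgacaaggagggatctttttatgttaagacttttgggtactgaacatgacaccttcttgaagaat
Amtn (chr5:88375858-88376157, plus strand): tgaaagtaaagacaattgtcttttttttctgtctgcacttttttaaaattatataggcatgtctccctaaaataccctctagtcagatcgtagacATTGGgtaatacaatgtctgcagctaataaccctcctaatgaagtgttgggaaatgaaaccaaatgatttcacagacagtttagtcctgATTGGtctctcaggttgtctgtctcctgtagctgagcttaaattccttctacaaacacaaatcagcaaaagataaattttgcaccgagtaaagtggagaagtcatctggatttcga
Klk4 (chr7:43880910-43881209, plus strand): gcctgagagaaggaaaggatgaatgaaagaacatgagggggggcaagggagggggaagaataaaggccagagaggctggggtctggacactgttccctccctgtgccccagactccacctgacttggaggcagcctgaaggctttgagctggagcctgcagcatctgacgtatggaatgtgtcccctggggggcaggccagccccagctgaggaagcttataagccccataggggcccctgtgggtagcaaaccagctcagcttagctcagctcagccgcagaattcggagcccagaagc

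Of the 7 promoters, 6 held CCAAT on at least 1 strand, as did 37.4% of all 32851 promoters of this length. On the reverse strand matches began 58 and 26 bases before the start site in *Amelx*, 47 and 39 in *Ambn*, 70 in *Enam*, 155 and 66 in *Amtn*, 62 in *Odam* and 164 in *Slc24a4*, with a forward match at 125 in *Ambn*, and *Klk4* had none. TATAAA was found in *Amelx*, 31 bases before the start site, and in *Enam*, 137 bases before it, and in 13.6% of all promoters. In *Amelx* the TATAAA and a second reverse CCAAT share a base. TGTGGT was found in *Odam* alone (16.8% of all promoters), and neither TAATTA (5.29%) nor GGGCGG (35.7%) was found in any of the 7. The promoters of the 5 matrix genes on chromosomes 5 and X held between 36.7% and 41.7% G and C, *Klk4* 59.3% and *Slc24a4* 62.7%, where the median of all promoters was 52.7%. The motifs are letter matches and do not show that a factor binds.

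Levels were first compared between the genes per kb of exon, using the combined exon length in GENCODE M21. In CPM per kb, where CPM is the count scaled to the size of the normalized library, *Amelx* was highest in WT at 7282 ± 2733 (SD, n = 5), followed by *Ambn* at 3646 ± 1419, *Odam* at 1307 ± 257, *Amtn* at 574 ± 234 and *Enam* at 239 ± 80.9. *Sp6* was at 60.1 ± 15.3 CPM per kb and *Klk4* at 52.9 ± 25.2. *Slc24a4*, *Fam83h* and *Wdr72* were lowest, at 13.6 ± 6.76, 8.46 ± 1.72 and 5.54 ± 1.56 CPM per kb. The order of the 10 genes was the same in knockout-labelled mice. Within WT, the SD ranges overlapped between *Amelx* and *Ambn*, *Sp6* and *Klk4*, *Slc24a4* and *Fam83h*, and *Fam83h* and *Wdr72*. The group means and SDs alone therefore do not separate these pairs. Both genes of a pair were measured in the same mice, and their order mouse by mouse was not compared. All 10 genes together took between 0.948% and 2.68% of all counts in WT mice and between 2.89% and 4.65% in knockout-labelled mice.

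The genes of the secretory stage were higher in knockout-labelled mice. All 3 passed the limit of 0.05 on edgeR's adjusted p (quasi-likelihood test, Benjamini-Hochberg), as did 33.3% of all tested genes, with 14.0% higher and 19.3% lower. In counts this was 2289 genes higher and 3144 lower, and 1309 and 3781 when libraries were scaled to their totals alone.

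*Amelx* encodes amelogenin, the main protein of the secreted enamel matrix. It was at 7086, 8863, 10770, 6081 and 3581 CPM in WT replicates 1 to 5, and at 12400, 19910, 16420 and 25170 CPM in knockout-labelled replicates 1 to 4. Every knockout-labelled mouse was above every WT mouse, and WT replicate 5 was the lowest of all. The means were 7275 ± 2730 CPM (SD, n = 5) and 18470 ± 5418 CPM (SD, n = 4), a 2.54-fold difference (log2 fold change 1.34, SE 0.30, edgeR adjusted p = 0.00757).

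*Ambn* encodes ameloblastin, which binds the secretory ameloblast to its matrix. Its levels were 5546, 9412, 9996, 6578 and 3453 CPM in WT and 11460, 15690, 16360 and 17920 CPM in knockout-labelled mice. The groups did not overlap here either, and the order of the mice was close to that of *Amelx*. The difference in log2 was 1.13 (SE 0.28, edgeR adjusted p = 0.0122), from a mean of 6997 ± 2723 CPM in WT to 15360 ± 2762 CPM.

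*Enam* encodes enamelin, a large and less abundant matrix protein found where crystals start. It had 1234, 1413, 1946, 1274 and 704 CPM in WT replicates and 1933, 2988, 2683 and 2807 CPM in knockout-labelled replicates. WT replicate 3 and knockout-labelled replicate 1 were nearly level, so the groups overlapped, and the other 3 knockout-labelled mice were above all WT mice. In edgeR it rose by 0.99 on the log2 scale (SE 0.24, edgeR adjusted p = 0.0116). With each mouse left out in turn, all 3 secretory genes stayed past the threshold, with log2 fold changes of 1.16 to 1.54 for *Amelx*, 0.99 to 1.31 for *Ambn* and 0.85 to 1.19 for *Enam*. RNA came from whole mandibles, and more ameloblasts cannot be told apart from more RNA of these genes per ameloblast.

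**Figure D1:**
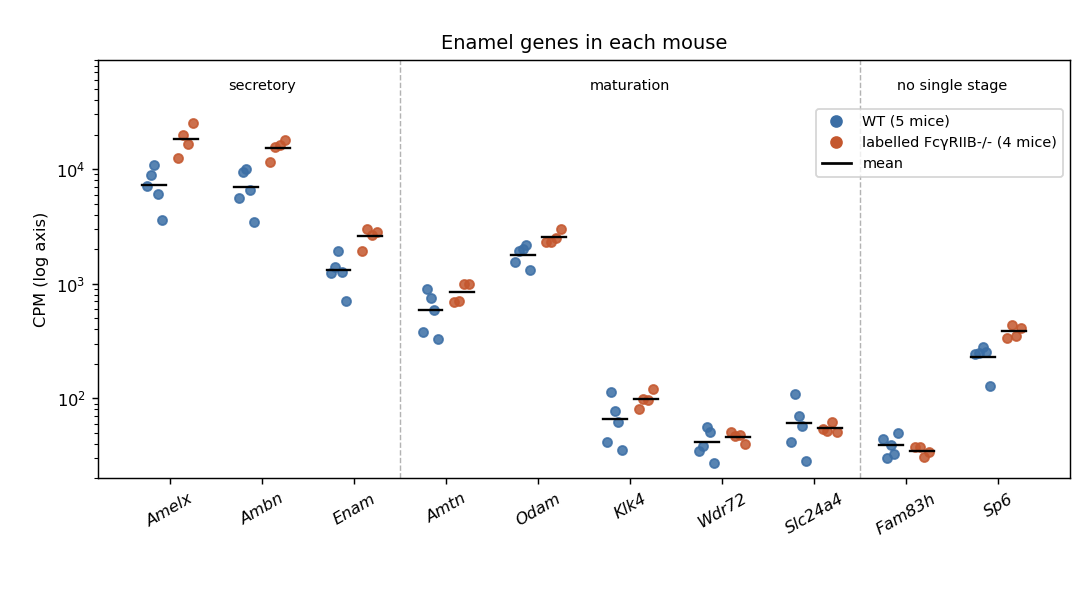
Level of each enamel gene in CPM on a log axis, with 1 point per mouse (WT, 5 mice, and knockout-labelled, 4 mice) and a black line at the group mean. The groups are apart for *Amelx*, *Ambn*, *Odam* and *Sp6*, and WT replicate 5 is the lowest WT point of 9 of the 10 genes.

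Of the 5 maturation genes, 1 rose and 4 did not pass, where 14.0% of all tested genes rose and 19.3% fell. *Odam*, which encodes a protein of the basal lamina of maturation ameloblasts and of the junctional epithelium around erupted teeth, was at 1560, 1924, 2029, 2170 and 1312 CPM in WT and at 2320, 2315, 2529 and 3026 CPM in knockout-labelled mice. The groups did not overlap, although the highest WT mouse and the lowest knockout-labelled mice were close. The difference in log2 was 0.50 (SE 0.16, edgeR adjusted p = 0.0325). This call was lost without WT replicate 1 (adjusted p = 0.0579), without knockout-labelled replicate 3 (adjusted p = 0.0605) or without knockout-labelled replicate 4 (edgeR adjusted p = 0.0913).

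*Amtn* encodes amelotin, another basal lamina protein that appears as maturation starts. It was at 382, 891, 748, 588 and 327 CPM in WT and at 699, 713, 988 and 998 CPM in knockout-labelled mice. WT replicates 2 and 3 lay within the range of the knockout-labelled mice and the other WT mice below it. The difference in log2 was 0.53 (SE 0.28, edgeR adjusted p = 0.159), and without WT replicate 2 it was 0.75 and passed (adjusted p = 0.0417).

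*Klk4*, the protease that clears the matrix, had a like distribution. Its levels were 41.2, 113, 78.2, 62.3 and 35.4 CPM in WT and 80.8, 98.7, 97.5 and 121 CPM in knockout-labelled mice. WT replicate 2 was above 3 of the 4 knockout-labelled mice. The difference in log2 was 0.59 (SE 0.29, edgeR adjusted p = 0.146), and without WT replicate 2 it was 0.89 and passed (adjusted p = 0.0147).

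*Wdr72*, which is needed for endocytosis of matrix fragments by maturation ameloblasts, was between 27.5 and 55.7 CPM in WT and between 39.8 and 50.4 CPM in knockout-labelled mice. *Slc24a4*, the exchanger that moves calcium toward the enamel in exchange for sodium, was at 41.7, 108, 70.2, 57.8 and 28.7 CPM in WT and at 53.5, 52.4, 62.2 and 50.5 CPM in knockout-labelled mice. In both genes the knockout-labelled mice fell inside the WT range. Neither difference passed, at a log2 fold change of 0.16 (SE 0.18, edgeR adjusted p = 0.538) for *Wdr72* and of -0.16 (SE 0.30, edgeR adjusted p = 0.706) for *Slc24a4*. The latter was 0.16 without WT replicate 2 and -0.32 without WT replicate 5.

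The remaining genes belong to no single stage. *Sp6*, also called epiprofin, is a zinc finger transcription factor needed for dental epithelium to form ameloblasts. It was at 244, 250, 278, 254 and 128 CPM in WT and at 338, 436, 349 and 410 CPM in knockout-labelled mice, with no overlap and with WT replicate 5 far below the other WT mice. It rose by 0.73 on the log2 scale (SE 0.19, edgeR adjusted p = 0.0153), and it passed with each mouse left out.

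*Fam83h* encodes a protein that organizes keratin filaments in ameloblasts and in other epithelia. Its levels were 44.3, 30.3, 38.7, 32.9 and 49.5 CPM in WT and 37.7, 37.5, 30.8 and 33.8 CPM in knockout-labelled mice. The groups overlapped widely, and WT replicate 5, the lowest WT mouse in the other 9 enamel genes, was the highest in this one. The difference in log2 was -0.16 (SE 0.14, edgeR adjusted p = 0.387). In all, 5 of the 10 enamel genes rose and none fell, with a median log2 fold change of 0.56, where over all tested genes 14.0% rose and the median was 0.01. The groups did not overlap in 4 of the 10 genes and in 29.6% of all tested genes. Each of the 10 genes varied more among WT mice than among knockout-labelled mice. Coefficients of variation were between 19.7% and 49.9% in WT and between 9.45% and 29.3% in knockout-labelled mice. The share of all tested genes with this pattern was not computed, so it is not shown to be particular to enamel genes. The 10 genes are also not independent here, since WT replicate 5 was the lowest WT mouse in 9 of them.

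The stages were then set against each other within each mouse, as the mean log2 CPM of the 3 secretory genes minus that of the 5 maturation genes. The difference was 4.82, 4.35, 4.78, 4.30 and 4.31 in WT replicates 1 to 5 and 4.99, 5.54, 5.25 and 5.52 in knockout-labelled replicates 1 to 4. All knockout-labelled mice were above all WT mice. The means were 4.51 ± 0.27 (SD, n = 5) and 5.33 ± 0.26 (SD, n = 4) on the log2 scale, a shift of 0.81. Because the genes were chosen with earlier results known, this score is given as a description and was not tested.

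The 2 parts of the score moved unequally. The secretory mean was between 11.01 and 12.54 log2 CPM in WT and between 12.7 and 13.4 in knockout-labelled mice. The maturation mean was between 6.70 and 7.91 log2 CPM in WT and between 7.67 and 7.88 in knockout-labelled mice, which is inside the WT range. WT replicates 2 and 3, at 7.91 and 7.75, were above or within the range of the knockout-labelled mice in maturation genes while their secretory genes were lower. With *Wdr72* and *Slc24a4*, which other tissues also express, left out of the maturation genes, the shift was 0.60, and with single mice left out it was between 0.74 and 0.93.

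Ratios of raw counts inside a library do not depend on how libraries are scaled. *Ambn* itself rose, so any gene that rose less has a lower ratio to it. The ratios therefore restate the unequal changes gene by gene and are not separate support. Per count of *Ambn*, the count of *Odam* was 0.203 to 0.380 in WT and 0.148 to 0.203 in knockout-labelled mice. The count of *Amtn* was 0.0688 to 0.0946 per *Ambn* count in WT and 0.0454 to 0.0610 in knockout-labelled mice. *Klk4* was at 0.00742 to 0.01205 in WT and in knockout-labelled mice at 0.00596 to 0.00705 per *Ambn* count. For *Slc24a4* the ratio was 0.00702 to 0.0115 in WT and 0.00282 to 0.00467 in knockout-labelled mice, the widest gap relative to its level. In these 4 genes the groups did not overlap, although for *Odam* their nearest mice were almost level, and in *Wdr72* they did. By contrast, the ratio of *Amelx* to *Ambn* was 0.9245 to 1.278 in WT and 1.004 to 1.405 in knockout-labelled mice. That of *Enam* to *Ambn* was 0.150 to 0.222 and 0.157 to 0.190, so *Amelx* and *Enam* kept overlapping proportions to *Ambn*. *Mmp20*, a secretory stage protease gene described below, did not, and was lower relative to *Ambn* in knockout-labelled mice without overlap. *Klk4* to *Amtn*, a ratio between 2 maturation genes, also overlapped, at 0.105 to 0.127 and 0.0986 to 0.138.

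**Figure D2:**
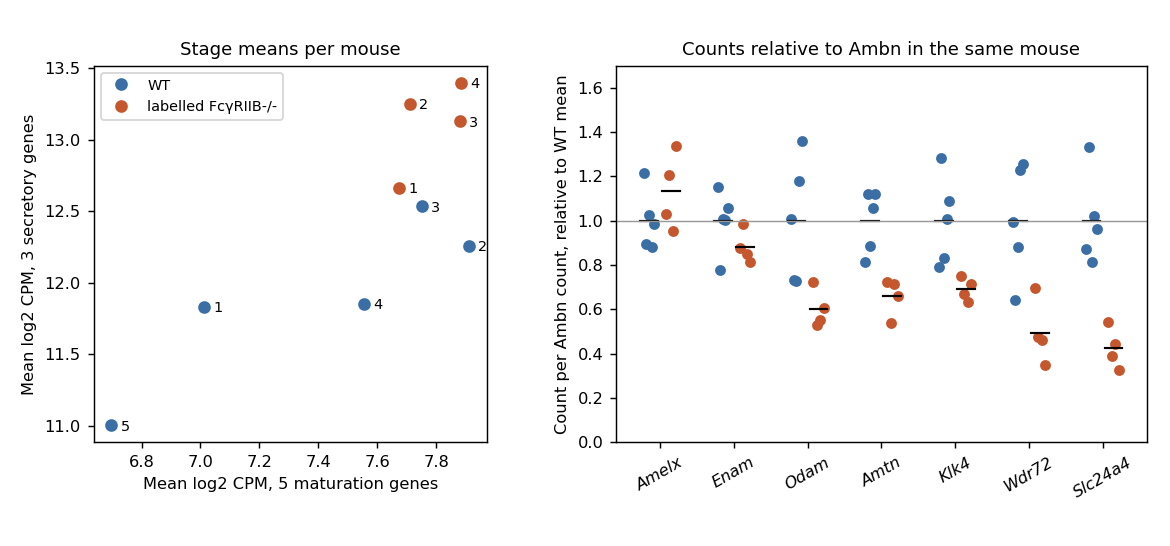
Left, mean log2 CPM of the 3 secretory genes against that of the 5 maturation genes, with 1 point per mouse and its replicate number. Right, count of each gene per *Ambn* count of the same mouse, divided by the WT mean of that ratio, with black lines at group means (blue, WT, 5 mice, and orange, knockout-labelled, 4 mice). Knockout-labelled mice lie within the WT range on the maturation axis and above WT on the secretory axis, and 4 of the 5 maturation genes have ratios below all WT mice.

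Other genes of the ameloblast were taken from 3 lists of 39 genes found in the table, of which 38 passed the filter. In edgeR's test 17 of the 38 were higher and 5 lower in knockout-labelled mice, where 14.0% of all tested genes were higher and 19.3% lower. Scaling to library totals alone left 10 higher. Their median log2 fold change was 0.31, against 0.01 over all genes. The lists were drawn up with the direction of the mandible data known.

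All 9 genes of the list for the secretory ameloblast and its attachment rose. *Acp4*, an acid phosphatase whose loss impairs enamel formation, had the largest change, at a log2 difference of 1.12 (SE 0.27, edgeR adjusted p = 0.00966). It was at 55.5 ± 20.6 CPM (SD, n = 5) in WT and at 121 ± 25.0 CPM (SD, n = 4) in knockout-labelled mice, without overlap. *Mmp20*, the metalloproteinase that cuts amelogenin during secretion, rose less, from 213 ± 64.7 to 333 ± 49.4 CPM (log2 fold change 0.64, SE 0.22, edgeR adjusted p = 0.0435). The call of *Mmp20* was lost in 5 of the 9 fits that left out 1 mouse, those without WT replicate 1 or 4 or knockout-labelled replicate 2, 3 or 4, with an adjusted p as high as 0.103. The count of *Mmp20* per *Ambn* count was 0.0250 to 0.0352 in WT and 0.0198 to 0.0235 in knockout-labelled mice, so that relative to *Ambn* it was below all WT mice.

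The laminin chain genes *Lama3* and *Lamb3*, whose products anchor epithelia to their basement membrane, rose by 0.42 and 0.71 on the log2 scale (adjusted p = 0.0236 and 0.00477 in edgeR). The hemidesmosome genes *Col17a1* and *Itgb4* rose by 0.36 and 0.32 on the log2 scale, *Itgb6*, an integrin subunit needed for enamel, by 0.32, and P-cadherin (*Cdh3*) by 0.36, with adjusted p between 0.015 and 0.039 in edgeR. These laminin chains, the hemidesmosome and P-cadherin are used by all stratified epithelia and do not mark ameloblasts alone. Single mice also decided some calls: *Lama3* did not pass without knockout-labelled replicate 2 or 3, *Itgb6* without WT replicate 2 or 5 or knockout-labelled replicate 1 or 4, and *Cdh3* without knockout-labelled replicate 1, 2 or 4, with edgeR adjusted p of up to 0.0694, 0.105 and 0.0928. Scaling to library totals alone, *Mmp20*, *Lama3*, *Itgb4*, *Itgb6* and *Cdh3* did not pass.

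Of 18 tested genes for maturation and ion transport, 3 were higher, 4 were lower and 11 did not pass, shares near those over all tested genes (14.0% and 19.3%). *Relt*, a receptor of the TNF family needed for enamel mineralization, rose by 0.67 (SE 0.19, edgeR adjusted p = 0.0204), *Slc26a6*, an anion exchanger, by 0.46 (adjusted p = 0.023) and *Car12*, a membrane carbonic anhydrase, by 0.43 (adjusted p = 0.00844). Without knockout-labelled replicate 4, *Relt* and *Slc26a6* no longer passed (adjusted p = 0.0621 and 0.0596 in edgeR), nor did *Relt* without replicate 2 (0.0511) or *Slc26a6* without replicate 3 (0.0569). *Odaph*, which encodes a phosphoprotein needed for enamel maturation, fell from 37.7 ± 5.69 CPM (SD, n = 5) to 19.8 ± 4.63 CPM (SD, n = 4) without overlap (log2 fold change -0.93, SE 0.16, edgeR adjusted p = 0.00219). *Car2* had the largest fall, from 195 ± 13.5 to 82.0 ± 16.4 CPM (log2 fold change -1.25, edgeR adjusted p = 2.09e-04). It encodes a carbonic anhydrase that is also abundant in osteoclasts and red cell precursors. *Stim1*, the calcium sensor of store-operated entry, and *Atp2b4*, a calcium pump, fell by 0.33 and 0.54 on the log2 scale (adjusted p = 0.0108 and 0.00502 in edgeR). Both are expressed in many tissues.

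Among 11 genes listed as transcription factors of the ameloblast, 5 rose, 1 fell and 5 did not pass, where 14.0% of all tested genes rose and 19.3% fell. *Satb1*, which sets the polarity of secretory ameloblasts, rose by 0.66 (SE 0.15, edgeR adjusted p = 0.00839). *Tbx1* rose by 0.51 (adjusted p = 0.0163), *Dlx3* by 0.44 (adjusted p = 0.0219) and *Runx1* by 0.44 (edgeR adjusted p = 0.0313). *Dlx3* was at 133 ± 22.5 CPM in WT and 180 ± 16.6 CPM in knockout-labelled mice. Calls were lost for *Dlx3* without knockout-labelled replicate 2 or 4 (adjusted p up to 0.0561 in edgeR) and for *Runx1* without WT replicate 1 or knockout-labelled replicate 2 or 3 (adjusted p up to 0.091), and for both when libraries were scaled to their totals alone (adjusted p = 0.0611 and 0.0859 in edgeR). *Shox2*, a factor of palate and jaw mesenchyme, was the one that fell, by 0.63 on the log2 scale (edgeR adjusted p = 0.0134).

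**Figure D3:**
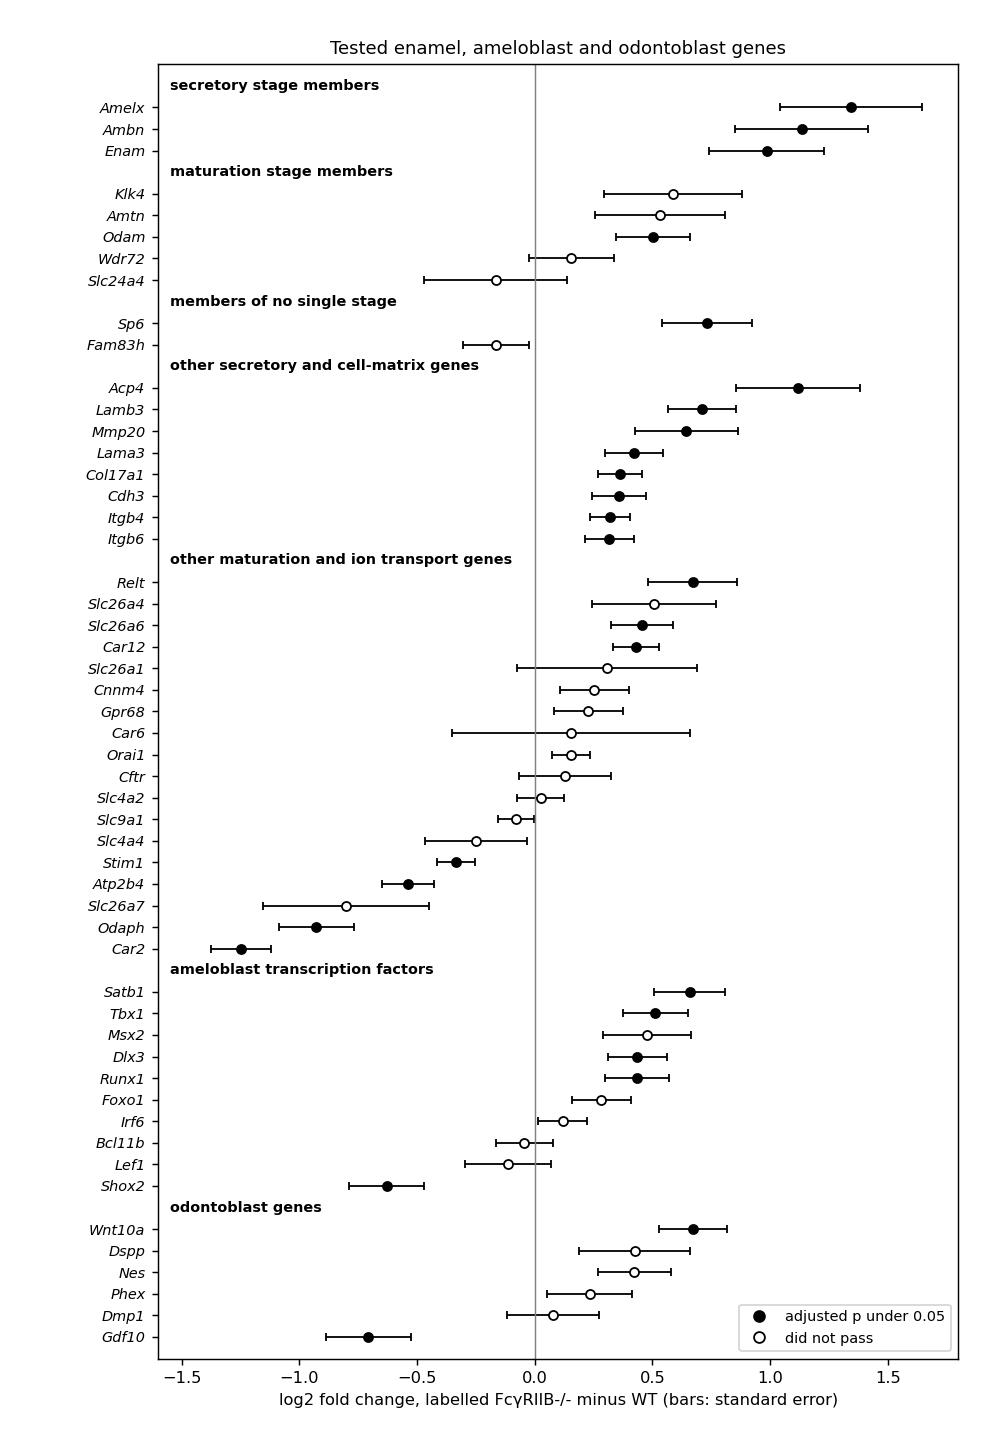
log2 fold change of each tested gene, knockout-labelled minus WT, with its standard error, for the enamel genes, other ameloblast genes (all tested genes of 3 lists but 2) and the odontoblast genes. Filled points passed an adjusted p of 0.05 in edgeR's quasi-likelihood test. The secretory genes and the drawn genes of the secretory and attachment list lie to the right of 0, and the maturation and ion transport list lies on both sides.

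Of 7 tested genes of the incisor's stem and progenitor cells, 1 rose, 2 fell and 4 did not pass, where 14.0% of all tested genes rose and 19.3% fell. *Shh*, a signal made by the dental epithelium near the progenitor zone, rose with a log2 fold change of 1.26, from 33.5 ± 11.9 CPM (SD, n = 5) to 80.4 ± 19.3 CPM (SD, n = 4) without overlap (edgeR adjusted p = 0.00535). *Igfbp5* and *Notch1*, which many other tissues express, fell by 0.68 and 0.27 on the log2 scale (adjusted p = 0.00341 and 0.0179 in edgeR), and *Notch1* did not pass without WT replicate 1 (edgeR adjusted p = 0.057).

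The tooth's other mineral-forming cell, the odontoblast, makes dentine. Of 6 odontoblast genes, 1 rose, 1 fell and 4 did not pass, again near the 14.0% and 19.3% over all tested genes. *Dspp*, which encodes the main dentine matrix phosphoproteins and marks odontoblasts, was at 4690 ± 1489 CPM (SD, n = 5) in WT and 6297 ± 1099 CPM (SD, n = 4) in knockout-labelled mice, with overlap (log2 fold change 0.43, SE 0.24, edgeR adjusted p = 0.187). WT replicate 5 was lowest over the summed odontoblast genes too, at 3625 CPM. The other WT mice were between 5040 and 7989 and knockout-labelled mice between 6517 and 8810. Most of this sum was *Dspp*, at 2645 CPM in WT replicate 5. *Dspp*, *Nes*, *Phex* and *Wnt10a* were lowest in that mouse, whereas *Dmp1* and *Gdf10* were highest in it, at 367 and 27.3 CPM. Per count of *Ambn*, *Dspp* was at 0.558 to 0.766 in WT and at 0.329 to 0.465 in knockout-labelled mice, without overlap. *Wnt10a*, a signal shared by odontoblasts and dental epithelium, rose by 0.67 (edgeR adjusted p = 0.00573) and *Gdf10* fell by 0.71 (adjusted p = 0.0139).

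Markers of other tissues in the mandible also differed between the groups, in both directions, and their part in the result was not tested. Over all tested genes 14.0% rose and 19.3% fell. The summed level of 10 marrow markers was between 1248 and 3560 CPM in WT and between 145 and 419 CPM in knockout-labelled mice, and all 10 fell, including *S100a9* (log2 fold change -2.44) and *S100a8* (-2.19). Of 11 tested markers of keratinized epithelium, 9 fell and 1 rose. Their sum was highest in WT replicate 5, at 20730 CPM, the mouse with the lowest level of 9 enamel genes. *Krt13*, a keratin of the oral lining, fell (log2 fold change -5.32), and *Krt14*, a keratin of basal cells, was at 2270 ± 531 CPM in WT and 2674 ± 311 CPM in knockout-labelled mice (edgeR adjusted p = 0.32). Of 10 skeletal muscle markers 6 rose and 4 did not pass. Those with most counts, *Myh1* and *Acta1*, were among the 4 (adjusted p = 0.066 and 0.051 in edgeR). Both passed in DESeq2 (adjusted p = 0.0177 and 0.0351) and with a replicate block (0.00729 and 0.0101 in edgeR), and *Acta1* also with 2 other scalings. Of 15 alternatives besides the block, however, *Myh1* did not pass in 12 and *Acta1* in 10. The sum of the muscle markers was between 8244 and 19120 CPM in WT and between 18990 and 33130 CPM in knockout-labelled mice. WT replicate 2, the highest WT mouse in *Amtn*, *Klk4* and *Slc24a4*, had the lowest muscle sum and the lowest keratinized sum of WT. Among 8 osteoblast markers 3 fell, including *Col1a2* (log2 fold change -0.52), whose call was lost without WT replicate 3 (edgeR adjusted p = 0.0526) or knockout-labelled replicate 2 (0.0503), and *Col1a1* was at 31250 ± 5993 and 32590 ± 4597 CPM. Salivary gland genes were low, with *Amy1* at 15.2 ± 3.14 CPM in WT and 22.5 ± 3.95 CPM in knockout-labelled mice (log2 fold change 0.56, edgeR adjusted p = 0.0257), and its call was lost without knockout-labelled replicate 1 (0.0754) or 4 (0.0675).

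The chromosome 5 cluster was also read gene by gene. Between the start of *Odam* and the end of *Enam*, a span of 621 kb, the table holds 12 genes, of which 4 are enamel genes. Of the 8 others, 7 were under 1 CPM in every mouse, and *Csn3*, a casein gene of milk, reached 2.54 CPM at most and did not pass (edgeR adjusted p = 0.131). Downstream of *Enam* lies *Jchain*, which encodes the joining chain of secreted antibodies and was singled out after its values were seen. It fell from between 36.2 and 659 CPM in WT to between 8.79 and 17.2 CPM in knockout-labelled mice (log2 fold change -3.75, edgeR adjusted p = 0.0146), the opposite direction to the gene beside it, and without WT replicate 2, its highest mouse, the log2 fold change was -2.00. Elsewhere in the same gene family, *Mepe* and *Ibsp*, matrix genes of bone, fell (log2 fold change -4.46 and -0.64, adjusted p = 0.0232 and 0.0426 in edgeR), while *Spp1* did not pass (-0.37, adjusted p = 0.298). *Csn1s1*, a casein, also fell but stayed near 1 CPM or below. The call of *Mepe* was lost without knockout-labelled replicate 1, 3 or 4, that of *Csn1s1* without replicate 3, and that of *Ibsp* without WT replicate 2, 3 or 5 or any 1 knockout-labelled mouse (edgeR adjusted p of up to 0.0633, 0.052 and 0.11), while *Mepe* was at 246 CPM in WT replicate 5 and between 7.38 and 13.9 CPM in the other WT mice, and its log2 fold change without that mouse was -2.03.

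**Figure D4:**
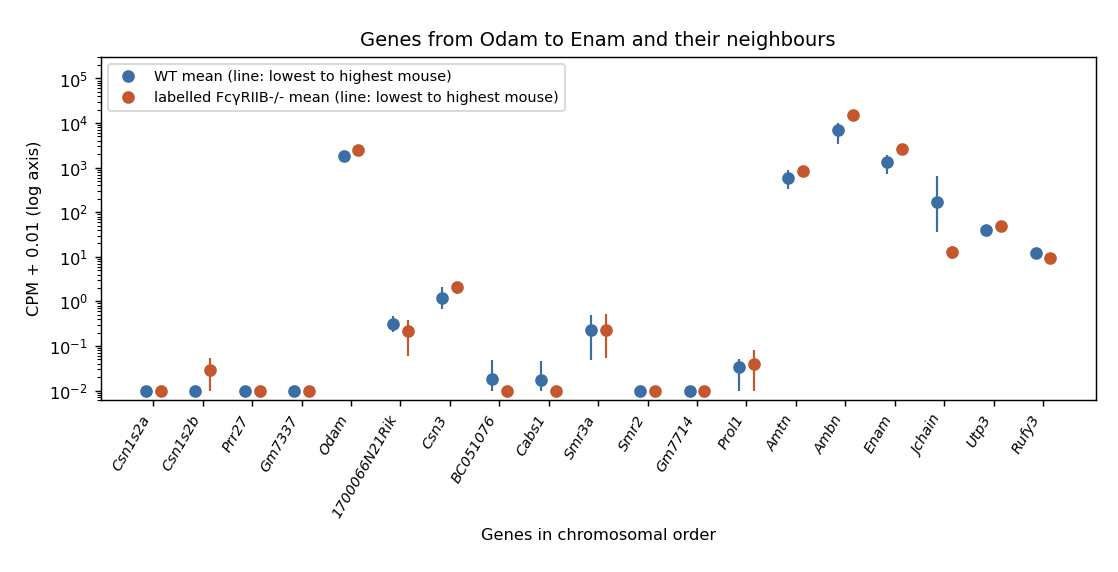
Mean CPM plus 0.01, on a log axis, of the genes from *Odam* to *Enam* and of their neighbours within 100 kb, in chromosomal order, with lines from the lowest to the highest mouse of each group. *Odam*, *Amtn*, *Ambn* and *Enam* are at 587 CPM or more in the WT mean, and most of the genes between *Odam* and *Amtn* are below 1 CPM.

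The genes whose pattern across mice was most like that of the secretory genes were sought among 13922 genes with a mean of at least 1 log2 CPM, with Pearson's r over the 9 mice to the mean log2 CPM of *Amelx*, *Ambn* and *Enam* as the measure of likeness. The nearest was *Aplp1*, an amyloid precursor-like protein, with r = 0.996. It was at 134, 181, 204, 138 and 87.1 CPM in WT and at 239, 311, 313 and 389 CPM in knockout-labelled mice, following the secretory genes mouse by mouse. *Gpr4*, a receptor that senses protons, and *Isl1*, a homeobox factor, each had 0.994. *Plekhh1* and *Acp4* had 0.99, and *Gal3st4*, *Chst1* and the pseudogene *Slc2a4rg-ps* between 0.988 and 0.989. *Acp4* is also on the secretory list above, and its r is over the same mice. *Gal3st4* and *Chst1* both encode sulfotransferases that act on sugar chains. With the genotype means removed, the 8 values were between 0.962 and 0.99. All of these mice share the difference between the genotypes and the low WT replicate 5, so the values describe likeness in these 9 libraries and carry no test.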

How the data were processed

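Poly(A) RNA from whole mandibles with teeth was sequenced in 9 mice. Per the labels and methods, reads were cleaned of adapters (Trim Galore), aligned to mm10 (HISAT 02.1.0) and summed per gene (featureCounts). The values the authors deposited are raw counts without normalization, and the annotation used is not given in the sources used here. The table also held 1 column of values that matches no sample, which was not used. Groups and replicate numbers came from the labels.

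Counts were analysed with R 4.3.3 and edgeR 4.0.16: filterByExpr (minimum count 10), TMM, and the quasi-likelihood test of genotype over all 16329 genes, with Benjamini-Hochberg adjustment at 0.05. A standard error is the size of the log2 fold change divided by √F. log2 CPM used a prior count of 2. Totals of 21453880 to 28991631 counts leave little counting error for the enamel genes, and the spread is between mice. No pair of libraries was near identical. In counts simulated with the depth and spread of this comparison for 16329 genes, 200 genes had a true change of 1 (log2). There edgeR recovered 73% and DESeq2 1.42.0 81%, and 5.81% and 21.7% of their calls were false. The data gave far more calls (2289 higher and 3144 lower), so these shares need not hold for them.

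The enamel genes, the stage assignment and the lists were chosen with earlier results of these data known. Named genes are the enamel genes, the genes of the ameloblast, progenitor, odontoblast and cluster lists that passed, the most abundant of each list, the 2 most abundant of each list of other cells, *Fcgr2b*, and the 8 genes most like the secretory genes. Alternatives were other scalings, other filters, DESeq2, a fold limit, a replicate block and leaving out each mouse. qPCR and microCT were not analysed here. The values of 2 listed genes are not reported here, but these genes remain in the counts.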

Additional observations from a re-analysis of the deposited data

Results flagged for a closer look

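In *Sp6*, WT replicate 5 stood apart from the other 4 WT mice, at 7.005 log2 CPM. The gap to the next mouse was 0.833 of the whole WT range, above Dixon's 95% critical value of 0.71. It was the only one of 26 groups of values examined, over the 10 enamel genes and the stage scores, where chance alone gives about 1 in 20. Without this mouse *Sp6* still passed in edgeR.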

How the results depend on the processing

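With each mouse left out in turn, between 4 and 7 of the 10 enamel genes were higher and none lower in edgeR. The count was 4 without WT replicate 1 or knockout-labelled replicate 3 or 4, where *Odam* was lost, and 7 without WT replicate 2, where *Amtn* and *Klk4* were gained. Of the other ameloblast genes between 11 and 19 were higher, with 11 without knockout-labelled replicate 2 or 4. Over all genes 1781 to 2292 were higher and 2521 to 2771 lower. *Slc24a4* ranged from -0.3214 to 0.1616 on the log2 scale, the latter without WT replicate 2, and *Col1a1* from -0.0226, without knockout-labelled replicate 4, to 0.1895. The causes were not tested.

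With library totals as the only scaling, which moved the median of all genes by -0.077 (log2), 1309 genes were higher and 3781 lower, against 2289 and 3144, *Odam* was lost (adjusted p = 0.0712 in edgeR), 10 other ameloblast genes were higher, and *Col1a1* was at -0.0228. With a log2 fold change of at least 1 in size also required, 181 genes were higher, 1069 were lower and 2 enamel genes, *Amelx* and *Ambn*, were higher. DESeq2 gave 2753 higher and 3313 lower genes, with 5 enamel genes higher. *Amelx*, *Ambn*, *Enam* and *Sp6* passed in edgeR or DESeq2 under every alternative run without the fold limit.

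Same-numbered mice did not deviate together over the tested genes (r from -0.114 to 0.097, and no mouse was most like its own number). This gave no sign of pairing by number, but it does not show how the mice were housed or processed. With the replicate block, over 8 mice, 1841 genes were higher and 2209 lower, 5 enamel genes were higher and none lower, and 17 other ameloblast genes were higher and 6 lower. With the block *Slc26a6*, *Notch1* and *Gdf10* no longer passed, and *Acta1* and *Myh1* did.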

Other observations

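*Muc19*, a mucin of salivary gland, had 1134 counts in knockout-labelled replicate 4 and at most 12 in any of the other 8 mice, and it was not tested because it did not pass the filter on low counts. That mouse also had the highest *Amelx*, *Ambn*, *Odam*, *Amtn* and *Klk4* of all 9 mice. Without it, the log2 fold changes of the secretory genes stayed past the threshold in edgeR.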
